A study of Mus musculus with 12 samples.

Results

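This account covers 34 genes of glycolysis and of the transcriptional response to low oxygen, matched by symbol to a list of gene names; no expression threshold was used, although the list was drawn up with earlier results of these data known. All 34 were found among the 24310 features of the deposited expression files. They comprise the glucose and lactate carriers Slc2a1, Slc2a3, Slc16a1 and Slc16a3, and 20 genes for the glycolytic enzymes and their regulators Pfkfb3 and Pfkfb4. The list also holds the pyruvate dehydrogenase kinase Pdk1, the hypoxia-inducible factor subunit Hif1a with its hydroxylases Egln1 and Egln3, and the hypoxia response genes Vegfa, Bnip3, Ankrd37, Ddit4, Ero1l and P4ha1. Of the 34 genes, 32 passed the filter on low values and were tested, while Aldoc and Ldhb stayed below it.

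Glycolysis splits glucose into pyruvate in the cytosol, and lactate dehydrogenase turns pyruvate into lactate when it is not passed to mitochondria. Under normal oxygen, EGLN enzymes hydroxylate the alpha subunit of hypoxia-inducible factor, which marks it for destruction. Under low oxygen the subunit escapes, binds DNA at a short core motif, and raises transcription of glucose carriers, most glycolytic enzymes, Pdk1 and secreted factors such as Vegfa. Leukaemic blasts are known to rely strongly on glycolysis, and granulocytes depend on it almost entirely.

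The libraries came from C57BL/6 mice that were engrafted intravenously with GFP-positive CMM cells, a mouse acute myeloid leukaemia model which the series title names as inv(16). Once about 1% of blood cells carried GFP, mice were given 3 intravenous injections, every other day, of PBS, of CpG-scrODN or of CpG-STAT3dODN. CpG-STAT3dODN joins a CpG oligonucleotide, a ligand of the endosomal receptor TLR9, to a decoy oligonucleotide for the transcription factor STAT3, and CpG-scrODN joins the same kind of ligand to a scrambled sequence. Selection for c-Kit was done on spleen cells collected 1 day after the final dose; the series text speaks of sorted cells positive for both GFP and c-Kit. All groups therefore carried the same leukaemia in the same host strain; the labels and series text used here state neither the age nor the sex of the mice. There were 4 libraries in each of the 3 labelled groups. The column header inside each file disagrees with its label: files labelled PBS are headed DEC, files labelled CpG-scrODN are headed PBS, and files labelled CpG-STAT3dODN are headed SCR. Groups are named below by their labels, and no difference is assigned to a treatment, because the labels and the headers cannot be reconciled from the files.

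Several whole-library features bear on the values. Read depth, estimated from the smallest steps in the files, was 31410000 to 36170000 reads per library, and the correlation of log2 values between libraries of a group was 0.928 to 0.997. Kit, the receptor used for selection, stood at 10.5 to 51.1 RPKM (reads scaled to transcript length and library size). Markers of other cells differed between groups: summed B cell markers were 174 to 677 RPKM under the PBS label, 9.59 to 25.3 under CpG-scrODN and 22.9 to 110 under CpG-STAT3dODN. Summed erythroid markers differed widely within groups, at 376 to 11620, 726 to 1829 and 358 to 5037 RPKM in the same order. Libraries number 4 labelled PBS and CpG-STAT3dODN stood apart by Fos, at 12.9 and 5.91 RPKM, against 486 to 1156 RPKM in the other 10. In these mixed-cell libraries, fewer cells of a type and less RNA per cell cannot be told apart.

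Together the 34 genes made up 0.655 to 0.927% of all RPKM in a library. Their levels, which can be compared between genes because RPKM is scaled by transcript length, spanned several orders of magnitude. Gapdh, the glyceraldehyde phosphate dehydrogenase, had the highest mean over the 12 libraries, 541 RPKM. It was followed by the lactate dehydrogenase subunit Ldha at 408, the aldolase Aldoa at 335 and the pyruvate kinase Pkm at 269 RPKM. Tpi1, Gpi1, Hk1, Pgam1, Pgk1 and Eno1 lay between 103 and 141 RPKM, and neighbours in that order overlapped in their ranges over libraries. Among the hypoxia genes Ero1l was highest at a mean of 60.6 RPKM, Hif1a had 27.7, Vegfa 16.8 and Bnip3 4.16. Ankrd37 and P4ha1 lay near the filter, and the lactate dehydrogenase subunit Ldhb, at 0.0213 to 0.532 RPKM, was the lowest member. Steadiest over all 12 libraries on the log2(RPKM + 1) scale were Gapdh, Aldoa and Egln1, each with a highest-to-lowest ratio of at most 1.41. Hk3 and Eno2 varied most on that scale, with SDs over the 12 libraries of 0.740 and 0.712. The scale compresses low values. By highest-to-lowest ratio, Ldhb at 25.0 and P4ha1 at 6.58 exceeded Hk3 at 6.14, and Aldoc at 5.76 exceeded Eno2 at 4.94.

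**Figure D1:**
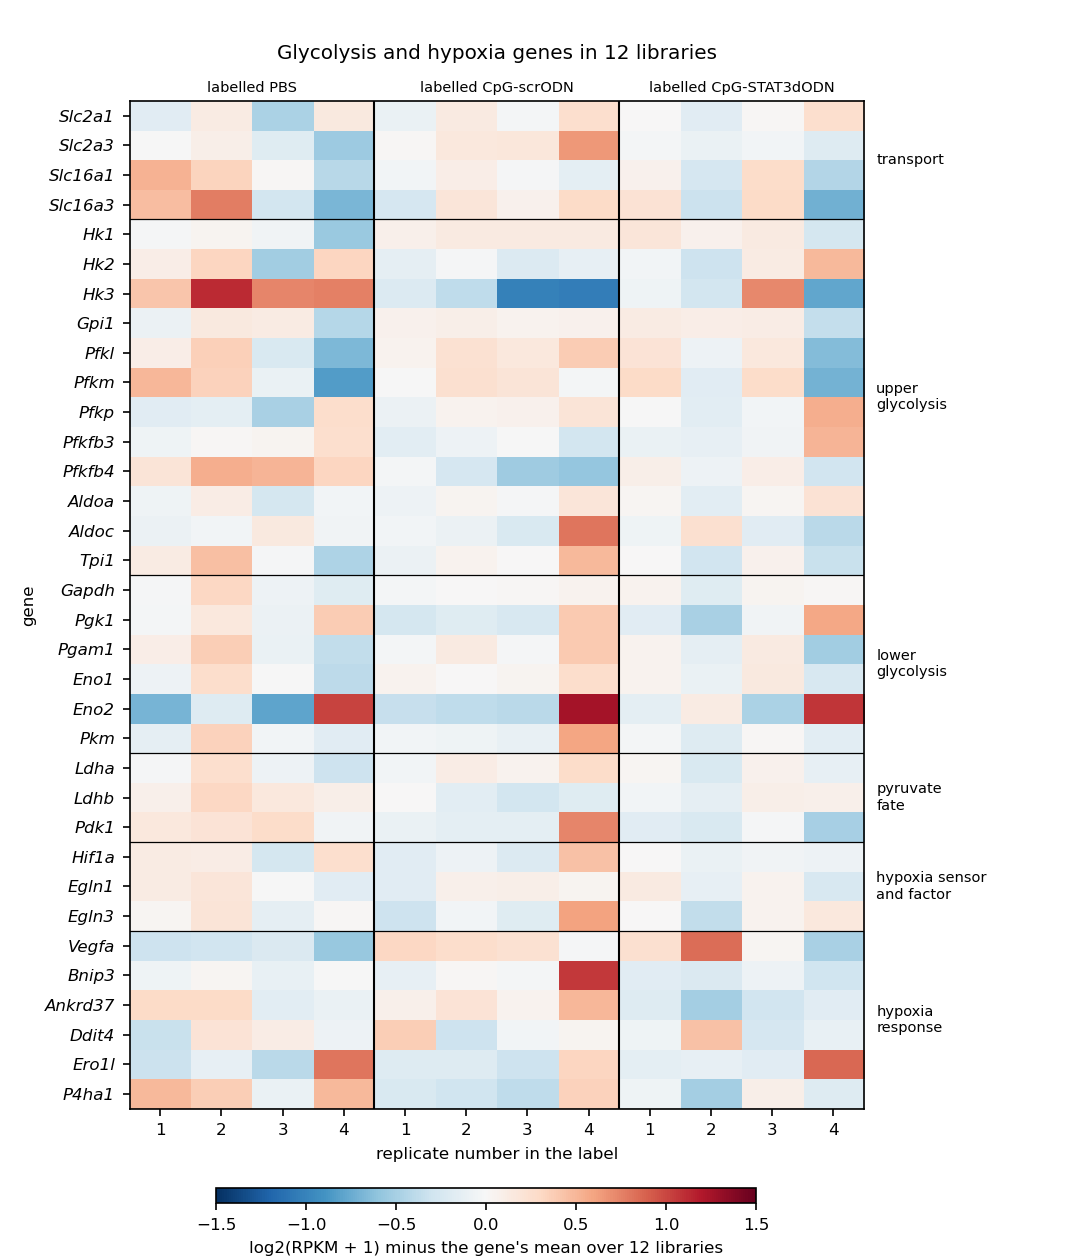
Heat map of the 34 genes (rows, in order of role) in the 12 libraries (columns, by labelled group and number); colour is the log2(RPKM + 1) value minus the gene's mean over the 12 libraries. Hk3 and Pfkfb4 are higher in the libraries labelled PBS than in those labelled CpG-scrODN, with Hk3 also high in CpG-STAT3dODN library 3, and Eno2 and Ero1l are higher in the libraries numbered 4.

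CpG-scrODN libraries were first compared with PBS libraries, by label. Most of glycolysis did not pass the test: 2 of 32 members did, both lower in the libraries labelled CpG-scrODN, namely the hexokinase Hk3 and the bifunctional regulator Pfkfb4. No member passed as higher. Over all 10886 genes tested, 4.15% passed, 4.04% as lower and 0.110% as higher, so that 2 of 32 members is close to the share in all genes. The test was limma's moderated test on log2(RPKM + 1), two-sided, with Benjamini-Hochberg adjustment over all genes tested and a threshold of 0.05. Without an adjustment, 5 members were under 0.05, against 15.6% of all genes. Members' differences had a median of 0.091, beside -0.046 for all genes, and 20 of the 32 were above 0, beside 40.1% of all genes. That median was -0.011 without CpG-scrODN library 4 and -0.074 without the 3 libraries numbered 4. For 15 of the 32 members the 95% interval of the difference lay within 0.5 on the log2 scale, which is 1.41-fold, and for 28 it lay within 1.

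Hk3 encodes a hexokinase, the enzyme that traps glucose as glucose 6-phosphate, and is known as the form typical of myeloid cells; it lies at chr13:55005985-55021475 (RefSeq, GRCm38.p6). In libraries 1 to 4 labelled PBS it was 7.27, 12.4, 9.29 and 9.43 RPKM. In those labelled CpG-scrODN it was 4.35, 3.76, 2.05 and 2.02 RPKM, and in those labelled CpG-STAT3dODN 4.90, 4.12, 9.17 and 2.61 RPKM. Every PBS library thus lay above every CpG-scrODN library, as for 10.0% of all genes tested. CpG-STAT3dODN library 3 lay among the PBS libraries while the rest of its group did not. The mean was 9.60 ± 2.11 RPKM (SD, n = 4) with the label PBS, 3.05 ± 1.19 with CpG-scrODN and 5.20 ± 2.81 with CpG-STAT3dODN. Hk3 fell by 1.42 ± 0.30 (SE) on the log2(RPKM + 1) scale in CpG-scrODN against PBS (95% interval -2.06 to -0.77, limma adjusted p = 0.0176). This call was lost without PBS library 2 (adjusted p = 0.0608), CpG-scrODN library 3 (0.0698) or CpG-scrODN library 4 (0.0612), with differences of -1.30, -1.30 and -1.29. The difference of CpG-STAT3dODN from PBS was -0.86 (95% interval -1.50 to -0.21) with a limma adjusted p of 0.274. CpG-STAT3dODN minus CpG-scrODN was 0.56 (95% interval -0.09 to 1.21), at an adjusted p of 0.96.

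Some markers of myeloid cells differed between the same groups as Hk3. Of 8 genes listed as markers of leukaemia and myeloid progenitors, Mpo, Elane and Ctsg passed as lower in CpG-scrODN against PBS. Ptprc, which leukocytes in general express and which is not particular to myeloid cells, also passed as lower. Of the other 4, Kit and Cd34 lay in the opposite direction, at 0.75 and 1.23 on the log2 scale, and Spi1 and Cebpa at -0.20 and -0.72, none of them passing. The list's summed level was 311 to 415 RPKM with the label PBS, 158 to 210 with CpG-scrODN and 217 to 328 with CpG-STAT3dODN. Mpo, the myeloperoxidase of primary granules, was 84.0 RPKM in CpG-STAT3dODN library 3, the library in which Hk3 was high, and 29.6 to 38.4 RPKM in the rest of that group. Of 7 monocyte and macrophage markers only Ly6c2 passed, as lower. Of 9 neutrophil markers 0 passed limma's adjusted test (5 at an unadjusted p under 0.05), with summed levels of 1721 to 5181, 529 to 2215 and 1864 to 4179 RPKM in the same order of groups. All 9 B cell markers tested passed as lower. None of these markers was at 0 in any library, and their part in the Hk3 result was not tested.

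Within the hexokinases, Hk1 supplied most of the RPKM in every library. Its share of the sum of Hk1, Hk2 and Hk3 was 87.0 ± 3.44% (SD, n = 4) with the label PBS, 94.0 ± 1.07% with CpG-scrODN and 91.4 ± 2.08% with CpG-STAT3dODN. The share of Hk3 was 7.99 ± 1.86%, 2.28 ± 0.911% and 3.87 ± 1.77%, and its ranges in PBS and CpG-scrODN, 5.65 to 9.91% and 1.51 to 3.32%, did not overlap. Hk1 itself was 115, 119, 112 and 78.6 RPKM with the label PBS, 122, 127, 128 and 127 with CpG-scrODN and 132, 121, 127 and 96.9 with CpG-STAT3dODN. All CpG-scrODN libraries lay above all PBS libraries for Hk1, but the difference of 0.26 (95% interval -0.03 to 0.55) had a limma adjusted p of 0.379, and it was 0.12 without the 3 libraries numbered 4. Groups that do not overlap in this direction were found for 3.83% of all genes tested. Hk2, the hexokinase induced by hypoxia, was 3.56 to 8.11 RPKM over all libraries and its groups overlapped.

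Pfkfb4 encodes a bifunctional enzyme that makes and degrades fructose 2,6-bisphosphate, the activator of phosphofructokinase, and is a known target of hypoxia-inducible factor; it lies at chr9:108988272-109032236 (RefSeq, GRCm38.p6). It was 2.15, 3.05, 2.95 and 2.46 RPKM in the libraries labelled PBS. With the label CpG-scrODN it was 1.70, 1.33, 0.910 and 0.849 RPKM, and with CpG-STAT3dODN 1.94, 1.62, 1.96 and 1.27 RPKM. Both of the latter groups lay wholly below the PBS libraries, as 10.0% of all genes did for CpG-scrODN and 4.23% for CpG-STAT3dODN. Means were 2.65 ± 0.424 (SD, n = 4), 1.20 ± 0.399 and 1.70 ± 0.328 RPKM in that order of groups. Pfkfb4 fell by 0.74 ± 0.15 (SE) in CpG-scrODN against PBS (95% interval -1.06 to -0.42, limma adjusted p = 0.0122). Without CpG-scrODN library 3 the adjusted p was 0.0534, with a difference of -0.68. Against PBS the CpG-STAT3dODN libraries differed by -0.44 (95% interval -0.76 to -0.12, limma adjusted p = 0.249), and against CpG-scrODN by 0.31 (95% interval -0.01 to 0.63, adjusted p = 0.96). The level is low, so the log2(RPKM + 1) scale understates the change: with a pseudocount of 0.1 the difference of CpG-scrODN from PBS was -1.12. The myeloid and B cell markers that differ between the groups apply to Pfkfb4 as they do to Hk3, and their part was not tested. Its paralogue Pfkfb3 was 10.9, 11.6, 11.8 and 13.8 RPKM with the label PBS, 10.1, 10.8, 11.4 and 9.26 with CpG-scrODN, and 10.6, 10.4, 11.0 and 16.6 with CpG-STAT3dODN. Its differences from PBS were -0.20 (95% interval -0.50 to 0.10) for CpG-scrODN and -0.01 (-0.31 to 0.29) for CpG-STAT3dODN.

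Short stretches of DNA before an annotated start of these 2 genes are shown because they are the members that passed the test, with Ankrd37, whose CpG-STAT3dODN libraries lay below both other groups, for comparison. Sequences are from RefSeq (GRCm38.p6), on each gene's own strand, 5′ to 3′. Capitals mark matches to ACGTG or GCGTG on either strand, so that CACGT and CACGC are the reverse-strand forms; ACGTG and GCGTG are the core letters of the hypoxia response element. Each stretch is 30 bases, at chr13:55021524-55021553 on the minus strand for Hk3, chr9:108991773-108991802 on the plus strand for Pfkfb4, and, all on the minus strand, chr8:46000071-46000100, chr8:45999988-46000017 and chr8:45999851-45999880 for Ankrd37.
Hk3: actacattttgaCACGTtgcctagttcaac
Pfkfb4: ttgacggatgggGCGTGcttagtccaaaag
Ankrd37, first: cccagcagtACGTGcctagctcggctcgca
Ankrd37, second: accttcactgcgCACGCGTGctgcggccgc
Ankrd37, last: ggctgcacatgtcagtgtttgggtACGTGa
The RefSeq table gives 1 start per gene, which for these 3 genes lies inside the gene's full span, so that the Pfkfb4 and Ankrd37 stretches fall within their genes as annotated. Hk3 and Pfkfb4 had 1 match each in the 250 bases before that start, whose first base lay 156 and 117 bases before it. Ankrd37 had 4 matches, 2 of them overlapping in the second stretch.

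Such letters are common before genes of this kind. Of the 33 members with a RefSeq window, 26 (78.8%) had at least 1 match in 250 bases, beside 58.4% of 8317 tested genes with a window and 38.6% of all 27025. The word CACGTG was counted as 2 overlapping matches because each strand holds the core. Base composition differed alongside: the median GC content was 62.8% in members, 60.0% in tested genes and 52.0% in all genes. The window is relative to a single RefSeq start per gene, and 17 of the 33 windows, those of Pfkfb4 and Ankrd37 among them, overlap an exon of some GENCODE transcript. A pair of windows free of such exons is shown whole, with and without matches. Pgk1, the phosphoglycerate kinase (chrX:106186850-106187099, plus strand), had 2 matches, and Vegfa (chr17:46032378-46032627, minus strand) had none in these 250 bases.
Pgk1: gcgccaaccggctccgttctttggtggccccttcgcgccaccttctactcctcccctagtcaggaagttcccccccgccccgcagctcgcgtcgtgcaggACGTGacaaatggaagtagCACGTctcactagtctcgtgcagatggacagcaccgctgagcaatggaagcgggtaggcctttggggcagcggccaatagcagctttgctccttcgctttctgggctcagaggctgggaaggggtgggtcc
Vegfa: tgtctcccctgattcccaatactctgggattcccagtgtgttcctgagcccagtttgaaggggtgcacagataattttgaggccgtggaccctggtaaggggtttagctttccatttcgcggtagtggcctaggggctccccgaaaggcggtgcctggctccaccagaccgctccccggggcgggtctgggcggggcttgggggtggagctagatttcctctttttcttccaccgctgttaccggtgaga
Neither gene passed the test in any comparison.

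**Figure D2:**
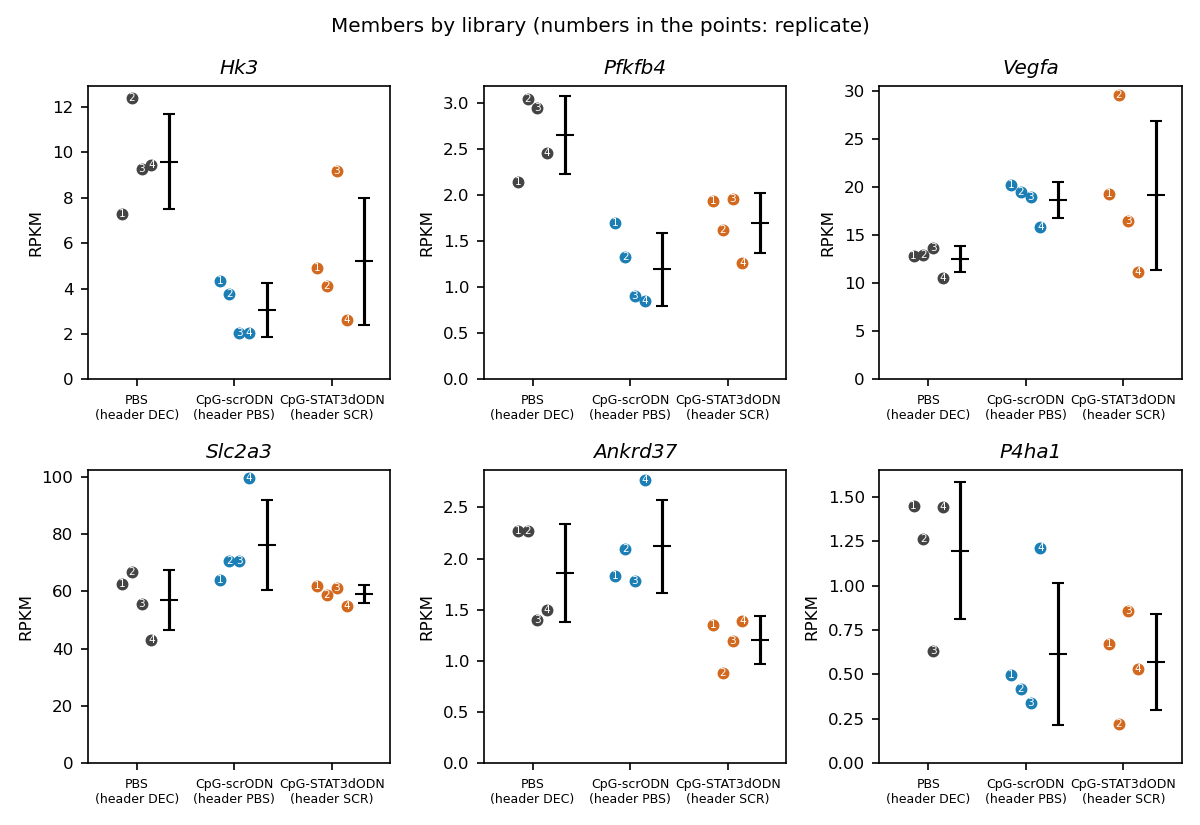
RPKM (vertical axis) of Hk3, Pfkfb4, Vegfa, Slc2a3, Ankrd37 and P4ha1 in each library (points, marked with the library's number) by labelled group (horizontal axis), with a tick at the mean and an error bar of 1 SD (n = 4). For Hk3 and Pfkfb4 every point labelled PBS lies above every point labelled CpG-scrODN, and for Vegfa the order is the opposite.

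Among the carriers, Slc2a3, a high-affinity glucose transporter of blood cells, was 62.6, 66.9, 55.5 and 43.0 RPKM with the label PBS. It was 64.0, 70.5, 70.7 and 99.5 RPKM with CpG-scrODN, and 61.8, 58.7, 61.2 and 55.0 with CpG-STAT3dODN. The CpG-scrODN libraries lay above all CpG-STAT3dODN libraries, with library 4 standing furthest, and overlapped the PBS range. The difference of CpG-scrODN from PBS was 0.41 ± 0.15 (SE; limma adjusted p = 0.201), and it was 0.15 without the 3 libraries numbered 4. Slc2a1, the glucose transporter most often used as a hypoxia target, was 12.5, 15.5, 9.93 and 15.8 RPKM with PBS, 13.2, 15.6, 13.8 and 17.0 with CpG-scrODN, and 14.2, 12.5, 14.4 and 17.1 with CpG-STAT3dODN. These groups overlapped throughout, with a difference of CpG-scrODN from PBS of 0.15 (95% interval -0.16 to 0.47). The lactate carriers Slc16a1 and Slc16a3 ranged from 13.7 to 27.6 and from 14.3 to 41.8 RPKM, and none of their 6 differences passed the test. None of the 4 carriers passed in any comparison.

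For the enzyme that commits sugar to glycolysis, phosphofructokinase, Pfkp supplied 41.6 to 49.3% of the summed RPKM of its 3 genes in all libraries numbered 1 to 3. In number 4 of the PBS and CpG-STAT3dODN labels that share was 67.3 and 70.8%, while in CpG-scrODN library 4 it was 49.1%. Pfkp was 53.1, 53.9, 42.4 and 71.9 RPKM with PBS, 56.0, 61.9, 62.6 and 68.6 with CpG-scrODN and 59.4, 53.3, 57.9 and 88.0 with CpG-STAT3dODN. Pfkl, the liver-type subunit, was 43.8, 52.4, 34.7 and 25.1 RPKM with PBS, 42.3, 47.8, 45.7 and 53.4 with CpG-scrODN and 47.1, 38.7, 45.8 and 25.6 with CpG-STAT3dODN. The 2 libraries of low Fos were thus the lowest for Pfkl and the highest for the Pfkp share. Neither gene passed in any comparison, with CpG-scrODN minus PBS at 0.19 (95% interval -0.19 to 0.57) for Pfkp and 0.32 (-0.18 to 0.81) for Pfkl. Without the 3 libraries numbered 4 these were 0.27 and 0.07. Gpi1 and Aldoa, which act on either side of this step, were 101 to 151 and 278 to 388 RPKM and did not pass. Aldoc, below the filter, was 0.379 to 2.18 RPKM, and Aldoa held at least 99.4% of the RPKM of the pair.

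**Figure D3:**
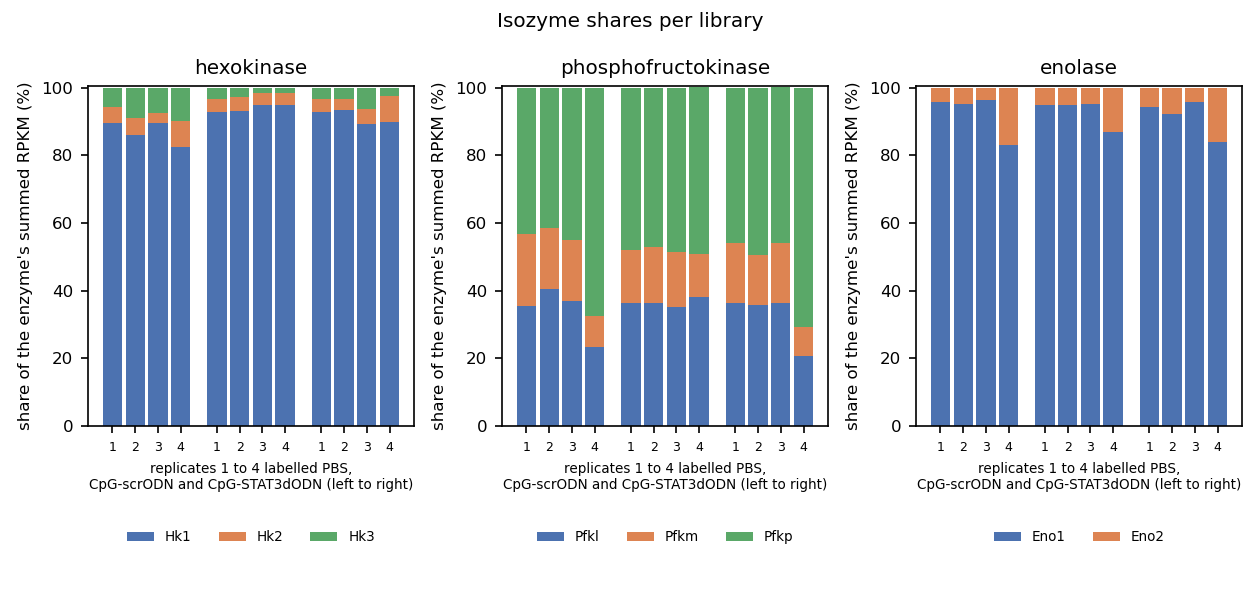
Stacked bars of the share (percent, vertical axis) of each isozyme in the summed RPKM of hexokinase, phosphofructokinase and enolase, per library (horizontal axis, by labelled group and number). The share of Hk3 among hexokinases is 5.65 to 9.91% with the label PBS and 1.51 to 3.32% with CpG-scrODN, the share of Eno2 is highest in the 3 libraries numbered 4, and that of Pfkp in number 4 of PBS and CpG-STAT3dODN. The enolase sum is of Eno1 and Eno2 and leaves out the copy Eno1b.

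The lower steps of the pathway did not pass at any step. Gapdh, often used as a reference gene, was 533, 668, 511 and 475 RPKM with the label PBS, 527, 542, 545 and 558 with CpG-scrODN, and 558, 477, 555 and 548 with CpG-STAT3dODN. Its differences from PBS were 0.00 (95% interval -0.21 to 0.22) for CpG-scrODN and -0.02 (-0.24 to 0.19) for CpG-STAT3dODN, so that a change beyond 0.24 on the log2 scale lies outside both intervals. Pkm was 242, 337, 258 and 235 RPKM with PBS, 257, 253, 246 and 400 with CpG-scrODN and 261, 233, 268 and 238 with CpG-STAT3dODN. Library 4 labelled CpG-scrODN gave the highest Pkm value of all and the other libraries of the 3 groups overlapped. Tpi1, Pgk1, Pgam1 and Eno1 had differences from PBS between -0.18 and 0.14 in both comparisons. Reads of Eno1 may be shared with its near-identical copy Eno1b, listed at 1.03 to 1.20 times the Eno1 value in every library, so the level of Eno1 is uncertain. Aldoa likewise has copies, Aldoart1 and Aldoart2, listed at 18.5 to 26.8 and 13.4 to 19.5 RPKM.

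At the fate of pyruvate, Ldha was 400, 482, 384 and 328 RPKM with PBS, 395, 440, 422 and 493 with CpG-scrODN and 415, 346, 423 and 373 with CpG-STAT3dODN. The groups overlapped, and CpG-STAT3dODN minus CpG-scrODN was -0.17 (95% interval -0.43 to 0.09). Ldhb contributed at most 0.110% of the RPKM of the pair. Only when the filter was dropped did Ldhb pass, by -0.31 ± 0.07 (SE, limma adjusted p = 0.0437) in CpG-scrODN against PBS. It lay near the floor, at 0.0213 to 0.532 RPKM, where the log2(RPKM + 1) scale understates changes. Its means were 0.385 RPKM with PBS and 0.114 with CpG-scrODN. Pdk1, the kinase that closes pyruvate dehydrogenase, was 4.06, 4.23, 4.50 and 3.36 RPKM with PBS, 3.24, 3.10, 3.10 and 6.56 with CpG-scrODN, and 3.03, 2.86, 3.49 and 2.21 with CpG-STAT3dODN. CpG-scrODN library 4 held the highest value of all 12, the other 3 of its group lay below every PBS library, and PBS library 4 overlapped CpG-STAT3dODN library 3. Without the 3 libraries numbered 4, Pdk1 passed as lower in both groups against PBS, at -0.34 (limma adjusted p = 0.0364) for CpG-scrODN and -0.35 (adjusted p = 0.05, just under the threshold before rounding) for CpG-STAT3dODN. With all libraries the differences were -0.06 (adjusted p = 0.898) and -0.38 (adjusted p = 0.625).

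The oxygen sensors and the factor itself did not pass in any comparison. Hif1a was 30.0, 29.8, 22.7 and 32.9 RPKM with PBS, 24.4, 26.1, 23.8 and 37.7 with CpG-scrODN and 27.7, 25.5, 26.5 and 26.0 with CpG-STAT3dODN. CpG-scrODN library 4 was again the highest and all 3 groups overlapped. Its differences from PBS were -0.05 (95% interval -0.37 to 0.26) and -0.11 (-0.43 to 0.21). Egln1 and Egln3, the latter itself induced by hypoxia, were 7.73 to 10.7 and 2.95 to 6.76 RPKM, with differences from PBS between -0.07 and -0.01. Hif1a activity is set largely by protein stability, which RNA levels do not measure.

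Of the hypoxia response genes, Vegfa, the endothelial growth factor, was 12.8, 13.0, 13.7 and 10.6 RPKM with the label PBS. It was 20.2, 19.5, 19.0 and 15.9 RPKM with CpG-scrODN and 19.3, 29.6, 16.5 and 11.2 with CpG-STAT3dODN. All CpG-scrODN libraries and 3 of 4 CpG-STAT3dODN libraries lay above every PBS library. CpG-scrODN lay wholly above PBS for 3.83% of all genes tested. The differences from PBS, 0.54 (95% interval 0.06 to 1.02) for CpG-scrODN and 0.50 (0.03 to 0.98) for CpG-STAT3dODN, did not pass, at limma adjusted p of 0.25 and 0.479. Fitted with only PBS and CpG-scrODN libraries, the same 0.54 had an adjusted p of 0.0267. P4ha1, a collagen prolyl hydroxylase, was 1.45, 1.26, 0.631 and 1.44 RPKM with PBS, 0.494, 0.417, 0.338 and 1.21 with CpG-scrODN and 0.672, 0.221, 0.859 and 0.528 with CpG-STAT3dODN. It passed the filter through 4 libraries, 3 of them labelled PBS, and its differences of -0.45 and -0.48 from PBS had adjusted p of 0.287 and 0.421 in limma's test. With a pseudocount of 0.1 the first was -0.94 and did not pass, and with library quality weights the first was -0.68 and passed (limma adjusted p = 0.0054). Ddit4, an inhibitor of mTORC1 signalling, was 30.9 to 53.6 RPKM with differences of 0.04 and 0.03.

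**Figure D4:**
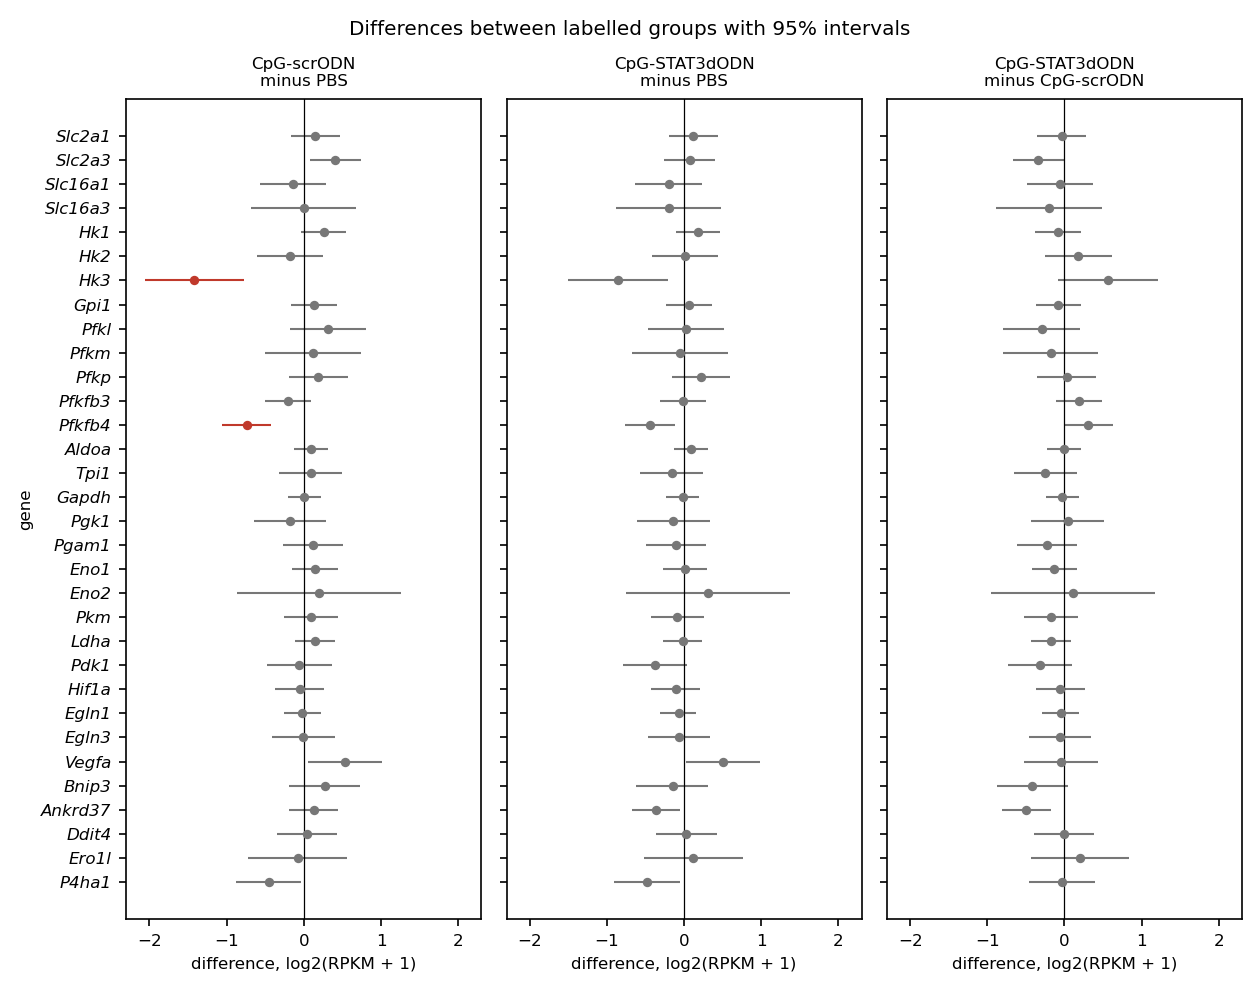
Difference in log2(RPKM + 1) for each of the 32 tested members (vertical axis, by role) in the 3 comparisons (panels), as points with 95% intervals on the horizontal axis; red marks a limma adjusted p under 0.05. In CpG-scrODN against PBS only Hk3 and Pfkfb4, at -1.42 and -0.74, pass limma's adjusted threshold of 0.05, and no member passes in the other 2 panels.

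CpG-STAT3dODN libraries were next compared with the same 4 PBS libraries that served the first comparison, so the 2 comparisons share them. No member passed: 0 of 32, against 1.86% of all genes (1.83% as lower and 0.0276% as higher), by limma's adjusted test. Without adjustment, 5 members (Pfkfb4, Hk3, Ankrd37, P4ha1 and Vegfa) were under 0.05, beside 9.40% of all genes. The members' median difference was -0.039, beside -0.011 for all genes, with 13 of 32 above 0 beside 46.3% of all genes. Intervals lay within 0.5 on the log2 scale for 15 members and within 1 for 30. Ankrd37, a small ankyrin-repeat protein gene induced by hypoxia, was 2.27, 2.27, 1.40 and 1.50 RPKM with PBS, 1.83, 2.09, 1.78 and 2.77 with CpG-scrODN, and 1.35, 0.882, 1.19 and 1.39 with CpG-STAT3dODN. Its CpG-STAT3dODN libraries lay below all libraries of both other groups, with library 4 at 1.39 next to PBS library 3 at 1.40. CpG-STAT3dODN lay wholly below PBS for 4.23% of all genes. No member lay wholly above the PBS libraries, as 0.818% of all genes did. The difference from PBS was -0.37 ± 0.14 (SE; 95% interval -0.68 to -0.05, limma adjusted p = 0.384).

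The last comparison, CpG-STAT3dODN against CpG-scrODN, is the one between the labels that share the CpG part. Again 0 of 32 members passed; by the same limma test 0 of all 10886 genes passed, and percent passing was 0. At an unadjusted p under 0.05 there were 2 members, Ankrd37 and Slc2a3, and 295 genes in all, 2.71%. Ankrd37 differed by -0.50 ± 0.14 (SE; 95% interval -0.81 to -0.18; unadjusted p = 0.00515, limma adjusted p = 0.96), and Slc2a3 by -0.34 (95% interval -0.67 to -0.01). Without CpG-scrODN library 4 the Slc2a3 difference was -0.21, and without all 3 libraries numbered 4 it was -0.17. These were also the 2 members whose groups did not overlap, both lower with CpG-STAT3dODN, as 0.873% of all genes were; no member lay wholly above, as 3.38% of all genes did. Bnip3, a mitophagy receptor, was 3.76, 4.09, 3.63 and 3.96 RPKM with PBS, 3.60, 4.04, 3.89 and 9.38 with CpG-scrODN and 3.42, 3.29, 3.74 and 3.06 with CpG-STAT3dODN. Its difference of -0.42 (95% interval -0.88 to 0.04) was -0.15 without CpG-scrODN library 4, which held more Bnip3 than any other library. The median over members was -0.059, beside 0.032 for all genes, and 8 of 32 were above 0, beside 60.0% of all genes. That median was -0.039 without CpG-scrODN library 4 and -0.003 without the 3 libraries numbered 4, beside 0.017 for all genes in both cases. Between libraries of a group, the members' median log2 level had an SD of 0.276 (mean of the 3 groups). That is the spread of a level, and the spread of the median difference was not estimated. Intervals lay within 0.5 for 15 members.

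Of 81 other genes of these pathways, 65 were tested. In CpG-scrODN against PBS 1 of 65 passed, as lower, where 4.15% of all genes did, and 11 were at an unadjusted p under 0.05, where 15.6% of all genes were. The median difference was -0.051, beside -0.046 for all genes. That gene, Egln2, encodes another of the hydroxylases that mark the hypoxia-inducible factor for destruction. It was 22.6, 22.6, 25.2 and 26.8 RPKM with PBS, 17.8, 17.8, 18.6 and 15.8 with CpG-scrODN, and 19.8, 18.0, 18.9 and 23.5 with CpG-STAT3dODN. The CpG-scrODN libraries lay wholly below the PBS libraries, as for 10.0% of all genes, and the CpG-STAT3dODN libraries reached into the PBS range. Egln2 fell by 0.45 ± 0.10 (SE) in CpG-scrODN against PBS (95% interval -0.66 to -0.24, limma adjusted p = 0.0199), and did not pass without PBS library 4 or without CpG-scrODN library 1, 2 or 4. Of 7 T cell markers, 3 were tested (Cd3g, Lck and Cd2), and all 3 passed as lower in the same comparison. Cd3g reached the filter only through the libraries labelled PBS, at 1.86 to 4.05 RPKM against at most 0.999 elsewhere. The B cell markers and some of the myeloid markers also fell between these groups, while Kit and Cd34 lay in the opposite direction. What part any of these markers had in the Egln2 result was not tested.

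The next pathway genes by p did not pass in that comparison. G6pdx, the first enzyme of the pentose phosphate pathway, was 24.2, 28.7, 25.4 and 31.0 RPKM with PBS, 21.1, 20.3, 18.4 and 18.9 with CpG-scrODN and 22.2, 19.0, 26.5 and 25.8 with CpG-STAT3dODN. Its CpG-scrODN libraries lay below all PBS libraries, as for 10.0% of all genes. The difference was -0.45, at a limma adjusted p of 0.0503. Stc2, a secreted stanniocalcin induced by hypoxia and by stress of the endoplasmic reticulum, was 9.83, 10.1, 17.2 and 14.0 RPKM with PBS, 22.9, 23.7, 24.3 and 19.0 with CpG-scrODN and 18.6, 34.3, 17.6 and 23.0 with CpG-STAT3dODN. All 8 libraries of the latter labels lay above all 4 PBS libraries. Separation upwards from PBS was found for 3.83% of all genes with CpG-scrODN and 0.818% with CpG-STAT3dODN. The differences were 0.80 ± 0.21 (SE; limma adjusted p = 0.0635) and 0.81 ± 0.21 (adjusted p = 0.104). Tigar, a phosphatase that lowers fructose 2,6-bisphosphate, was 1.24, 1.34, 0.896 and 1.63 RPKM with PBS, 0.531, 0.747, 0.586 and 0.718 with CpG-scrODN and 0.724, 0.437, 1.09 and 1.01 with CpG-STAT3dODN. Its PBS libraries lay above all CpG-scrODN libraries, again as for 10.0% of all genes, at a difference of -0.46 (limma adjusted p = 0.113).

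In the other 2 comparisons 0 of the 65 passed limma's adjusted test, where 1.86% and 0% of all genes did. At an unadjusted p under 0.05 there were 5 and 1, beside 9.40 and 2.71% of all genes, and the medians were -0.010 and 0.012. Siah2, a ubiquitin ligase that acts on EGLN proteins, was 6.70, 7.61, 6.25 and 8.02 RPKM with PBS, 4.16, 5.19, 6.01 and 6.19 with CpG-scrODN and 4.82, 3.88, 3.46 and 8.17 with CpG-STAT3dODN. Library 4 of the last group lay above all PBS libraries and its other libraries below them. Siah1a, its relative, was 5.09, 3.91, 3.62 and 6.28 RPKM with PBS, 3.06, 2.95, 3.20 and 3.76 with CpG-scrODN and 3.84, 3.96, 4.81 and 6.70 with CpG-STAT3dODN. The CpG-scrODN and CpG-STAT3dODN groups did not overlap, as for 3.38% of all genes in this direction. The difference was 0.44 (95% interval 0.06 to 0.81, limma adjusted p = 0.96). Taldo1, the transaldolase of the pentose phosphate pathway, was 148, 157, 138 and 148 RPKM with PBS, 139, 144, 139 and 137 with CpG-scrODN and 154, 136, 159 and 181 with CpG-STAT3dODN. Its groups overlapped, and CpG-STAT3dODN minus CpG-scrODN was 0.17 (95% interval -0.01 to 0.35).

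Several members differed widely between libraries of one label, often between number 4 and the rest. Eno2, the enolase named for neurons, which was picked here with its values in view, was 4.11, 6.25, 3.79 and 15.8 RPKM with PBS, 5.53, 5.40, 5.27 and 18.7 with CpG-scrODN and 6.48, 8.06, 4.96 and 16.4 with CpG-STAT3dODN. In each group number 4 was thus far above the others, and the share of Eno2 in the 2 enolases was 13.2 to 16.9% there and 3.57 to 7.78% in the other 9 libraries. The sum leaves out Eno1b, which may hold reads of Eno1, so the size of this share is uncertain. Ero1l, an oxidase of the endoplasmic reticulum picked in the same way, was 102, 72.6 and 106 RPKM in the number 4 libraries labelled PBS, CpG-scrODN and CpG-STAT3dODN, against 43.4 to 53.1 in the other 9. Slc2a1, Pfkp, Pgk1, Eno2 and Ero1l were above libraries 1 to 3 in number 4 of all 3 groups, and Slc16a1, Pfkm and Vegfa were below. For Eno2, CpG-scrODN minus PBS was 0.20 with a 95% interval of -0.86 to 1.26.

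CpG-scrODN library 4 differed from the other 2 libraries numbered 4. In it 22 of 34 members (64.7%) lay above libraries 1 to 3 of its group, beside 28.2% of all tested genes. It held the highest of 12 values for 13 members, among them Pkm at 400, Slc2a3 at 99.5, Bnip3 at 9.38 and Pdk1 at 6.56 RPKM. The share of all genes highest in that library was not computed, so the count of 13 has no background beside it. In PBS library 4 and CpG-STAT3dODN library 4, 16 (47.1%) and 17 (50.0%) members lay below libraries 1 to 3, beside 32.1 and 39.0% of all tested genes. In both at once, 13 members (38.2%) did so, beside 25.6% of all tested genes. Fos, an immediate-early gene, was 1038 RPKM in CpG-scrODN library 4, in the range of the other libraries. The macrophage scavenger receptor Cd163, picked with its values in view, was 5.33 RPKM in that library and at most 0.462 elsewhere. No other gene on the monocyte and macrophage list had its highest of 12 values there. The list's mean log2(RPKM + 1), Cd163 included, was 2.94 in CpG-scrODN library 4. That lay above libraries 1 to 3 of its group but within the PBS range of 2.72 to 3.20. Whether these features of library 4 had a part in its glycolytic values was not tested.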

How the data were processed

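RNA sequencing values were deposited by the authors as RPKM per gene, 1 file per library. The submitters' processing notes name TopHat 1.3.1, Partek 6.12.0713 and the build mm10. Settings and strand are not given in the sources used. Low values fell on whole reads too seldom (65.6 to 68.8% within 0.05) for reads to be recovered, so no count model was used. The members and gene lists were chosen with earlier results of these data known. Genes that reached an RPKM of 1 in 4 or more of the 12 libraries (10886) were tested on log2(RPKM + 1) with limma 3.58.1 in R 4.3.3, with an intensity trend, 3 labelled groups in 1 fit and Benjamini-Hochberg adjustment over all of them; the code was tested on simulated data. The labels do not say that libraries of a group are separate mice. The p-values therefore set a difference only against the spread among these samples, and that spread may be technical. No pair of files held identical values.

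Values per library are given for members that passed in any comparison, the 8 with the smallest p in each, and Gapdh, Pkm, Ldha, Hif1a, Vegfa and Slc2a1; for other pathway genes, those that passed and the 4 with the smallest p. Genes outside this rule are named as such or as a range. RefSeq gene tables and windows before gene starts, build GRCm38.p6, were matched by symbol (33 of 34 windows; Ero1l as Ero1a; none for Slc2a3). Hk3, Hk1, Slc16a3, Pfkm, Pfkp, Tpi1 and Ankrd37 overlap another listed gene (Unc5a, Hk1os, Csnk1d, Senp1, Pitrm1, Spsb2 and Ufsp2), whose reads may not be separable. Alternatives covered the pseudocount, filter, scaling, samples fitted, replicate block, library weights, trend and libraries left out.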

Additional observations from a re-analysis of the deposited data

Results flagged for a closer look

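In 13 of 102 groups of 4 libraries, 1 library's value was flagged by Dixon's test at 95%. The test sets the gap to the nearest value against the group's range, so a small gap can be flagged. For independent groups the nominal rate is about 1 in 20, but genes measured in the same libraries are not independent. The share flagged over all genes was not computed. Of the 13, 10 were libraries numbered 4. Among all tested genes, library 4 lay above libraries 1 to 3 for 40.4, 28.2 and 39.2% with PBS, CpG-scrODN and CpG-STAT3dODN. It lay below them for 32.1, 44.4 and 39.0%. With the label CpG-scrODN, library 4 stood apart for Pgk1 at 139 RPKM, Eno1 at 123, Eno2 at 18.7, Pkm at 400, Pdk1 at 6.56 and Bnip3 at 9.38, all of them above the others. CpG-scrODN library 1 was lowest for Hk1 at 122 and for Egln1 at 8.18 RPKM. The gap for Hk1 was small, as the rest of that group stood at 127, 128 and 127 RPKM. In CpG-STAT3dODN library 4, Gpi1 was low at 106 RPKM while Pfkfb3 at 16.6 and Ero1l at 106 were high. Gapdh was low in CpG-STAT3dODN library 2, at 477 RPKM. Hk1 was low in PBS library 4, at 78.6 RPKM.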

How the results depend on the processing

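Of 2170 recomputed differences (32 members, 3 comparisons, up to 23 alternatives), 2157 kept their side of the threshold, 4 lost a call, 9 gained one and 0 reversed a called direction. Members passing in CpG-scrODN against PBS numbered 2. They were 1 with a floor of 5 RPKM (Pfkfb4 untested) and 4 with library quality weights (also Vegfa and P4ha1). With 1 library left out they were 0 to 2. Besides Hk3 and Pfkfb4, Vegfa passed with 2 groups only, and Pdk1 passed without all libraries numbered 4. In CpG-STAT3dODN against PBS the count of 0 became 2 with the weights (Vegfa and Ankrd37) and 1 without all libraries numbered 4 (Pdk1), and in CpG-STAT3dODN against CpG-scrODN 2 with the weights (Pfkfb4 and Ankrd37). The estimate of the weights stopped before it converged; the cause of these shifts was not tested.

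Other pathway genes passing in CpG-scrODN against PBS (1) were 2 with a pseudocount of 0.1, 2 without the filter, 2 with quantile normalization, 3 with 2 groups only, 13 with the weights, 4 without both libraries of low Fos, 5 without all libraries numbered 4, and 0 to 3 with 1 library left out. In CpG-STAT3dODN against PBS (0) they were 9 with the weights, 2 without both libraries of low Fos, 3 without all libraries numbered 4, and 0 to 1 with 1 left out; in CpG-STAT3dODN against CpG-scrODN (0) they were 2 with the weights. Over all genes, 452 passed in CpG-scrODN against PBS, 163 with the floor of 5 and 1812 with the weights; in CpG-STAT3dODN against PBS 202 passed, 76 with that floor, 78 with 2 groups only and 1248 with the weights; in CpG-STAT3dODN against CpG-scrODN 1 passed with 2 groups only and 607 with the weights. With 1 library left out the first 2 counts were as low as 281 and 96.

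The replicate numbers did not consistently pair the samples: deviations of same-numbered libraries correlated at -0.34 to 0.82, above 0.1 in 5 of 12 pairs. The 3 pairs of number 4 correlated at 0.15 to 0.82 and the other same-numbered pairs at -0.34 to 0.33. Differently numbered libraries of different groups correlated at -0.68 to 0.81. The highest were PBS 3 with CpG-STAT3dODN 2 at 0.81, PBS 1 with CpG-STAT3dODN 3 at 0.61 and PBS 2 with CpG-STAT3dODN 1 at 0.59. Whether samples were paired in another order was not tested. With the number as a replicate block, 2, 0 and 0 members passed, and 2, 0 and 0 pathway genes (Pgm1 and Egln2 in the first). The sign of the members' median difference changed in several alternatives: with the weights it was -0.078 in the first comparison and 0.033 in the last, and with size factor scaling it was 0.003 in the second.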
